A study of Macaca mulatta with 8 samples.

Results

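The IgLON genes OPCML, LSAMP, NTM, NEGR1 and IGLON5 were followed across 4 stages of cortical development by the open chromatin of their loci in cultured rhesus macaque cells. The assay was ATAC-seq, which marks accessible DNA by the cuts of the Tn5 transposase. What is counted is the merged region, an interval for which the authors list the peaks joined in it, each peak with the code of the stage it was called at. A locus was the gene body and the 5 kb upstream of it, and every region there with a peak of at least 1 stage was taken. This gave 119 of the 72358 such regions of the series: 50 at OPCML, 40 at NTM, 21 at LSAMP, 4 at NEGR1 and 4 at IGLON5. The 5 kb upstream of the genes added no region, so all 119 overlapped a gene body. The genes were proposed with these peak calls known, and the regions were chosen by the same calls, so stage counts are given as a description with no test.

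IgLON proteins are immunoglobulin-domain adhesion molecules that a GPI anchor holds in the outer leaf of the neuronal membrane. They bind each other as homodimers and heterodimers across and along membranes, and are known for roles in neurite outgrowth, synapse formation and the choice of axon targets. OPCML, the opioid-binding cell adhesion molecule, is also studied as a tumour suppressor in human ovarian cancer. LSAMP, the limbic system-associated membrane protein, was first described on neurons of limbic areas. NTM encodes neurotrimin, NEGR1 encodes neuronal growth regulator 1 (also called kilon) and lies at a human locus associated with body mass index, and IGLON5 is the target of autoantibodies in a human sleep and movement disorder.

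The groups were primary cortex cells at post-conceptional days 50, 60, 80 and 85, called E50, E60, E80 and E85. At every stage the cortical tissue had been frozen, dissociated with papain and grown on coated plates in a medium with FGF2, EGF and BDNF that favours progenitors, so the cells had been in culture before they were assayed. Each stage was 1 culture with 2 technical libraries, 8 libraries in all, and the labels used here give no genotype, strain or treatment that sets the stages apart. No difference between stages therefore has a replicate check, and the exact 95% intervals below (Clopper-Pearson) cover counting error alone. The peak sets differed in size, 19833 peaks in the E50 set, 61956 in the E60 set, 60278 in the E80 set and 30701 in the E85 set, and the absence of a peak does not show that the chromatin was closed, since accessibility under the authors' threshold gives none. Depth per library was not used here. A change in the share of cells of a type and a change in accessibility within those cells cannot be told apart in bulk samples.

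The cortical label was checked on regions at the promoters of marker genes. Of the dorsal telencephalic markers, EMX2 and LHX2 were called at every stage, and EMX1 at E60, E80 and E85. Of the progenitor markers SOX2, PAX6, HES1, VIM and NES, 5 of 5 were called at every stage. Of the 5 neuronal markers DCX, STMN2, MAPT, RBFOX3 and SYT1, the E50, E60, E80 and E85 sets held 2, 5, 4 and 2. The counts of neuronal promoters thus moved with the size of the peak sets and with the IgLON counts below, and their part in those counts was not tested. None of 5 microglial promoters was called at any stage. Endothelial promoters were called in 0, 2, 1 and 0 of 4 cases at E50, E60, E80 and E85. In the oligodendrocyte lineage OLIG2 and PDGFRA were called at every stage, and SOX10 and MBP at none. Among mural cell markers PDGFRB was called at every stage and RGS5 at none.

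The starts of OPCML and NTM are shown first, because they share sequence. Coordinates are those of the rheMac10 (Mmul_10) build and count from 1. OPCML (chr14:125009629-126320788, minus strand) and NTM (chr14:123989722-124948076, plus strand) lie tail to tail on chromosome 14, with 61.6 kb between their ends. Each has an internal start in the annotation. The OPCML start at chr14:125554869 lies 766 kb into the gene and serves 4 of its 5 transcripts. The NTM start at chr14:124526569 lies 537 kb into its gene and serves 1 transcript, with another start that serves 2 transcripts 1055 bases before it. The 150 bases upstream of these internal starts, read along each gene, are printed with the runs of at least 12 bases that both share in capitals.
NTM internal start, chr14:124526419-124526568, plus strand: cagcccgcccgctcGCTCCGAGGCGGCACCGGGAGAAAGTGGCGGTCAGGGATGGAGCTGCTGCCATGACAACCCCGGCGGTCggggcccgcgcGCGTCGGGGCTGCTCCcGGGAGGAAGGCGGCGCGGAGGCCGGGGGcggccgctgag
OPCML internal start, chr14:125554870-125555019, minus strand: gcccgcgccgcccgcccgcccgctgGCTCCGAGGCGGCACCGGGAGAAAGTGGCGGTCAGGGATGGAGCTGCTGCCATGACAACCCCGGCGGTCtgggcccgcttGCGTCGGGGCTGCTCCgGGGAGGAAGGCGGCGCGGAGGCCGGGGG
Shared runs covered 113 of the 150 bases in each. Around the starts, 251 aligned bases were 91.6% identical between the genes (chr14:124526339-124526589 in NTM, chr14:125554838-125555081 in OPCML). Downstream of them, 220 bases were identical on opposite strands (chr14:124527341-124527560 in NTM, chr14:125553905-125554124 in OPCML), and this run occurred 2 times in the whole genome. It holds an exon of 85 bases in each gene and sequence on both sides of it.

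Both stretches lay in called regions. The NTM region at its internal start, chr14:124526282-124527015, and the OPCML region at its internal start, chr14:125554630-125555490, were both called at E60 and E80 and at neither E50 nor E85. The regions over the identical run were chr14:124527222-124527652 in NTM, called at E60 and E80, and chr14:125553768-125554278 in OPCML, called at E60, E80 and E85. The identical run made up 51.0% of the NTM region and 43.1% of the OPCML region. Reads that lie wholly within it match both genes, so calls that rest on such reads cannot be assigned to either, and how the authors treated them is not given in the sources used here. Both regions extend beyond the identical run, by 211 bases in NTM and 291 bases in OPCML.

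**Figure D1:**
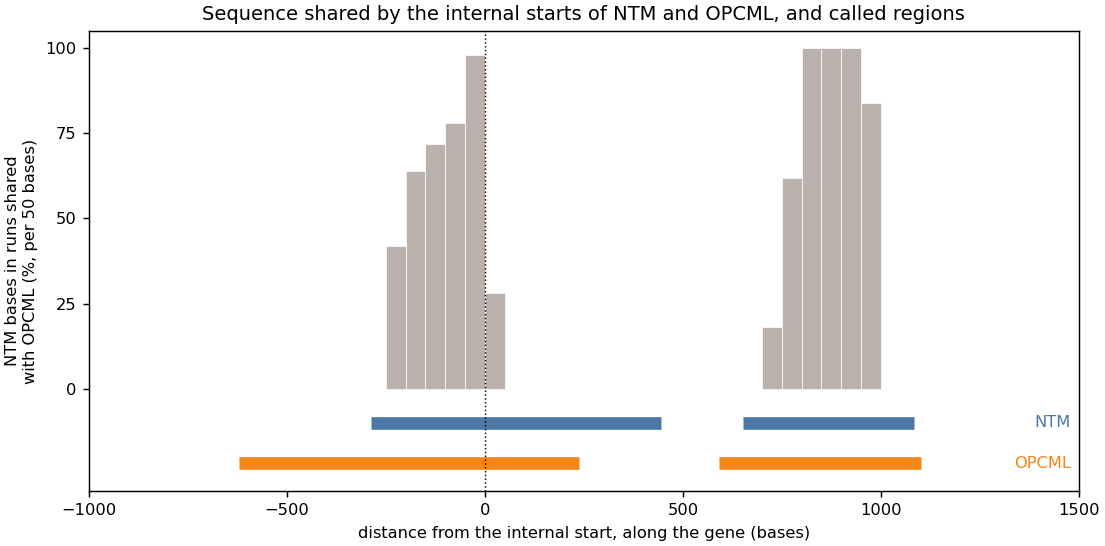
Share of NTM bases, in bins of 50 bases, that lie in runs of at least 12 bases also found at OPCML (grey bars, %), against the distance in bases from the internal start along each gene, with the called regions of NTM (blue) and OPCML (orange) below. Shared sequence stands in 2 blocks, at the start and over the downstream exon, and each block lies under a called region of each gene.

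The 150 bases upstream of 3 further starts in or beside a called region follow, 1 each for LSAMP, NTM and IGLON5, with motif letters in capitals where a motif of the list below was present. The starts of NEGR1 and the NTM start at chr14:124525514 also lie within 1000 bp of a called region, and their upstream sequence is not printed. LSAMP has starts at chr2:159826292 and chr2:159826364. The first NTM start at chr14:123989722 serves 7 of its 11 transcripts. The IGLON5 start shown lies at chr19:51106028 inside the gene.
LSAMP first start, chr2:159826142-159826291, plus strand: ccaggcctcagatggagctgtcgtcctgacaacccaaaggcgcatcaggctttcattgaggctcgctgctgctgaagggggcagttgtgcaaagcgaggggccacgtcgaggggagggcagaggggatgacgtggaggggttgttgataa
NTM first start, chr14:123989572-123989721, plus strand: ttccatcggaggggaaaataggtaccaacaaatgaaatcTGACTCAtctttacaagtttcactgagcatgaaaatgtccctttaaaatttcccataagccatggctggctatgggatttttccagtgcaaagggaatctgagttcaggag
IGLON5 internal start, chr19:51105878-51106027, plus strand: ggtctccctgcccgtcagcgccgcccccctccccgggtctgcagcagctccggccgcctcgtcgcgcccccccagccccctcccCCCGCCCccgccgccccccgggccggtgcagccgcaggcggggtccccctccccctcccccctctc
The NTM window holds an AP-1 motif, TGACTCA, which 1.73% of 49717 such windows upstream of annotated starts of protein-coding genes held on either strand. The IGLON5 window holds an SP/KLF motif, GGGCGGG, here on the opposite strand and present in 26.5% of those windows. The LSAMP window holds none of the 14 motifs searched.

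Start regions differed between the genes in stage and width. LSAMP (chr2:159826292-160475148, plus strand) had a region of 1814 bp over both starts, chr2:159825517-159827330, called at E60 and E80. It was the widest LSAMP region. NEGR1 (chr1:152148717-153036377, plus strand) had a region of 3119 bp, chr1:152149161-152152279, that held its second start and began 444 bp from its first. It was called at all 4 stages, was the widest of the 119 regions, and was the only region at a start of the 5 genes with a peak at E50. The first NTM start had a region of 299 bp beginning 96 bp downstream, chr14:123989818-123990116, called at E60, E80 and E85. A further NTM start at chr14:124200768 had its nearest region 2340 bp away, chr14:124203108-124204540, called at all 4 stages and, at 1433 bp, the widest of NTM. The first OPCML start at chr14:126320788, which serves 1 transcript, had its nearest region 55383 bp away, chr14:126264791-126265405, called at E60 alone. IGLON5 (chr19:51065731-51124708, plus strand) had its nearest region 1039 to 1048 bp from its 3 outer starts, chr19:51066779-51067201, and a region over its internal start, chr19:51105421-51106138. Both were called at E60 alone. In all, 10 of the 119 regions (8.40%, interval 4.10 to 14.9) lay within 1000 bp of an annotated start, of protein-coding and lncRNA genes alike, and are called promoter regions, against 23.2% of all regions. Of these, 8 lay at starts of the IgLON genes and 2 at starts of lncRNA genes inside NTM: LOC106993538 (chr14:124152460-124153033, all 4 stages) and LOC114672445 (chr14:124847511-124847877, E60 alone).

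Across the stages the loci held most regions at E60 and E80. OPCML had 5, 42, 38 and 12 regions at E50, E60, E80 and E85. NTM had 5, 31, 32 and 12, and was the only member with more regions at E80 than at E60. LSAMP had 3, 17, 12 and 6. NEGR1 had 1, 3, 3 and 2. IGLON5 had 0, 4, 1 and 0, so that 3 of its 4 regions were left at E60 alone. With the 5 loci together, there were 14 regions at E50 (11.8%, interval 6.58 to 19.0), 97 at E60 (81.5%, 73.4 to 88.0), 86 at E80 (72.3%, 63.3 to 80.1) and 32 at E85 (26.9%, 19.2 to 35.8). Among all 72358 regions the shares called were 26.0%, 82.8%, 80.3% and 40.1% in that order. Promoter regions, which made up 50.5% of the regions called at all 4 stages in the series, were fewer at the IgLON loci, so distal regions, meaning all others, are the closer background. Of the 109 distal IgLON regions the 4 stages called 11.0%, 79.8%, 71.6% and 25.7%, against 17.7%, 79.4%, 77.4% and 31.7% of all distal regions. The interval of each distal IgLON share held the share of all distal regions.

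**Figure D2:**
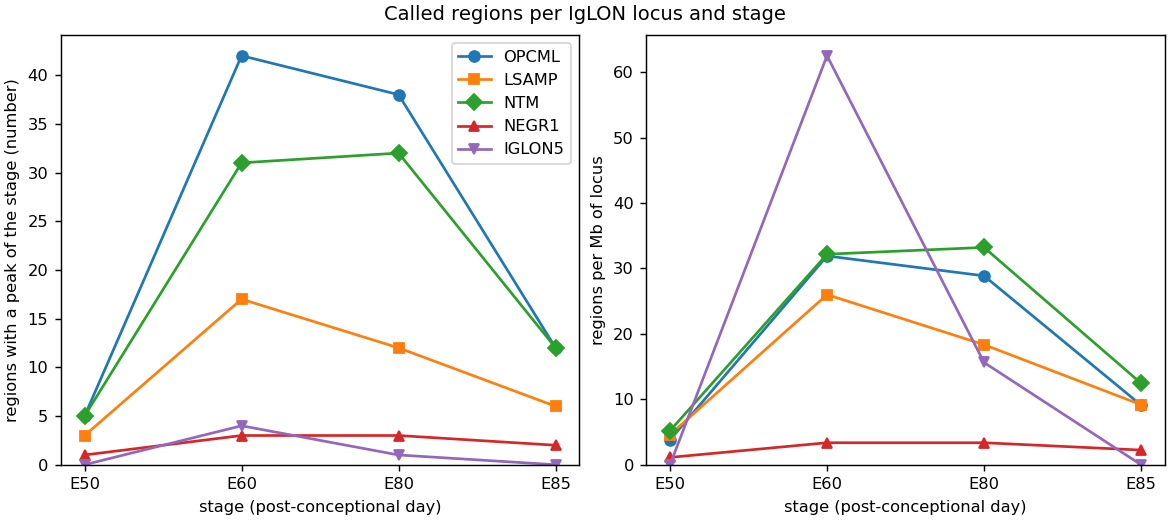
Number of called regions (left) and called regions per Mb of locus (right) at each IgLON locus, against post-conceptional day, with 1 peak set per stage and no replicate. OPCML, NTM and LSAMP hold 3 to 5 regions at E50 and 12 to 42 at E60 and E80. On the right, IGLON5 stands highest at E60 where its 4 regions lie in 64.0 kb of locus.

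The 14 regions called at E50 were all called at the other 3 stages too (exact interval for 14 of 14, 76.8 to 100%). In the series 17025 of 18819 E50 regions were, a share within that interval. Of the 15 possible combinations of stages the IgLON regions filled 7. E60 with E80 alone was the most frequent, at 37 regions (31.1%, interval 22.9 to 40.2), against 29.4% of all regions, or 33 of 109 distal IgLON regions (30.3%) against 32.0% of all distal ones. E60 alone followed with 30 regions, 25.2% (interval 17.7 to 34.0), against 16.4% of all regions. E80 alone held 20 regions, 16.8% (interval 10.6 to 24.8), against 13.3% of all regions. A further 15 regions were called at E60, E80 and E85 (12.6%, against 12.1% of all regions) and 14 at all 4 stages (11.8%, against 23.5%). The last 2 combinations were E85 alone, with 2 regions (1.68%, against 1.34%), and E60 with E85, with 1 region (0.84%, against 0.58%). Against distal regions the gap at all 4 stages narrowed, with 12 of 109 distal IgLON regions (11.0%, interval 5.82 to 18.4) and 15.2% of all distal regions. For E60 alone it narrowed too, with 28 of 109 (25.7%, interval 17.8 to 34.9) and 19.0% of all distal regions, a value within that interval.

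**Figure D3:**
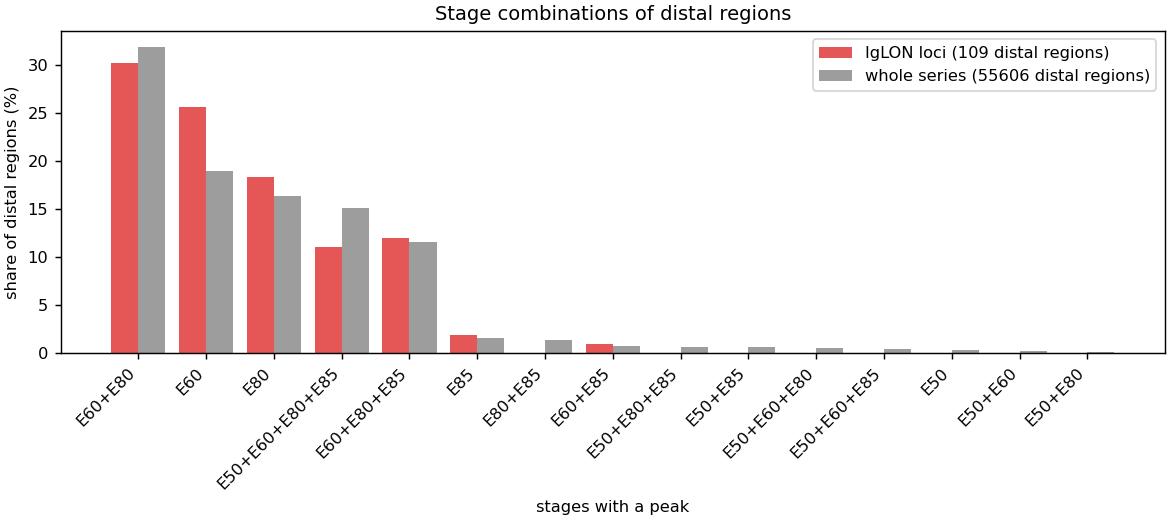
Share of distal regions (%) in each combination of stages with a peak, for the IgLON loci (red, 109 regions) and for the whole series (grey, 55606 regions). The IgLON bar is higher at E60 alone, 25.7% against 19.0%, and lower at all 4 stages, 11.0% against 15.2%.

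E80 and E60 had peak sets of nearly equal size, so regions called at just 1 of them are least touched by set size. At the IgLON loci 20 regions (16.8%, against 14.9% of all regions) were called at E80 and not at E60, and 31 (26.1%, against 17.4%) at E60 and not at E80. E80 thus took 39.2% of the discordant regions (interval 25.8 to 53.9), against 46.1% in the series and 47.4% in distal regions. By gene, E80 and E60 took 8 and 12 at OPCML, 8 and 7 at NTM, 3 and 8 at LSAMP, 1 and 1 at NEGR1, and 0 and 3 at IGLON5. Late-only regions had a peak at 1 or both of the later stages (E80, E85) and none at the earlier ones, and numbered 22 (18.5%, against 15.6% of all regions). Early-only regions had the reverse and numbered 30 (25.2%, against 16.8% of all regions). All 30 were called at E60 alone, and they were 30 of the 31 called at E60 and not at E80. Against the closer background of distal regions, E60 alone took 25.7% at the IgLON loci (interval 17.8 to 34.9) and 19.0% in the series. The series value lay within that interval. Late-only regions made up 42.3% of late-only plus early-only regions (interval 28.7 to 56.8), against 48.3% in the series. By gene, late-only and early-only regions numbered 8 and 11 at OPCML, 9 and 7 at NTM, 4 and 8 at LSAMP, 1 and 1 at NEGR1, and 0 and 3 at IGLON5. OPCML, LSAMP and IGLON5 thus had fewer late-only than early-only regions and NTM had more, by differences of 2 to 4 regions that were not tested and rest on 1 culture a stage. The direction of both balances depended on the regions with peaks lifted from other sets, described further on. Among the IgLON regions without a lifted peak, E80 took 18 of 33 discordant regions (54.5%), against 55.1% of such regions in the series, and late-only regions were likewise 18 of 33 (54.5%), against 57.0% in the series.

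The genes differed more in how densely regions lay along them. OPCML held 3.80 regions per 100 kb, NTM 4.15, LSAMP 3.21, NEGR1 0.448 and IGLON5 6.25. The median of 288 protein-coding loci with a body of at least 500 kb was 1.61 regions per 100 kb. In that group NTM ranked 24th from the densest, OPCML 33rd, LSAMP 55th and NEGR1 262nd. By number of regions OPCML ranked 5th of all 21122 protein-coding loci, at a median of 1 region per locus. By density the members were not unusual among all these loci, whose median was 4.09 regions per 100 kb. Of them, 52.0% were denser than OPCML, 49.5% than NTM, 56.5% than LSAMP, 76.9% than NEGR1 and 36.7% than IGLON5. NEGR1, with 888 kb of gene body, had neighbouring regions whose centres lay 509.8 kb apart. The largest distance between the centres of neighbouring regions was 145 kb at OPCML, 130.1 kb at LSAMP and 112 kb at NTM.

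**Figure D4:**
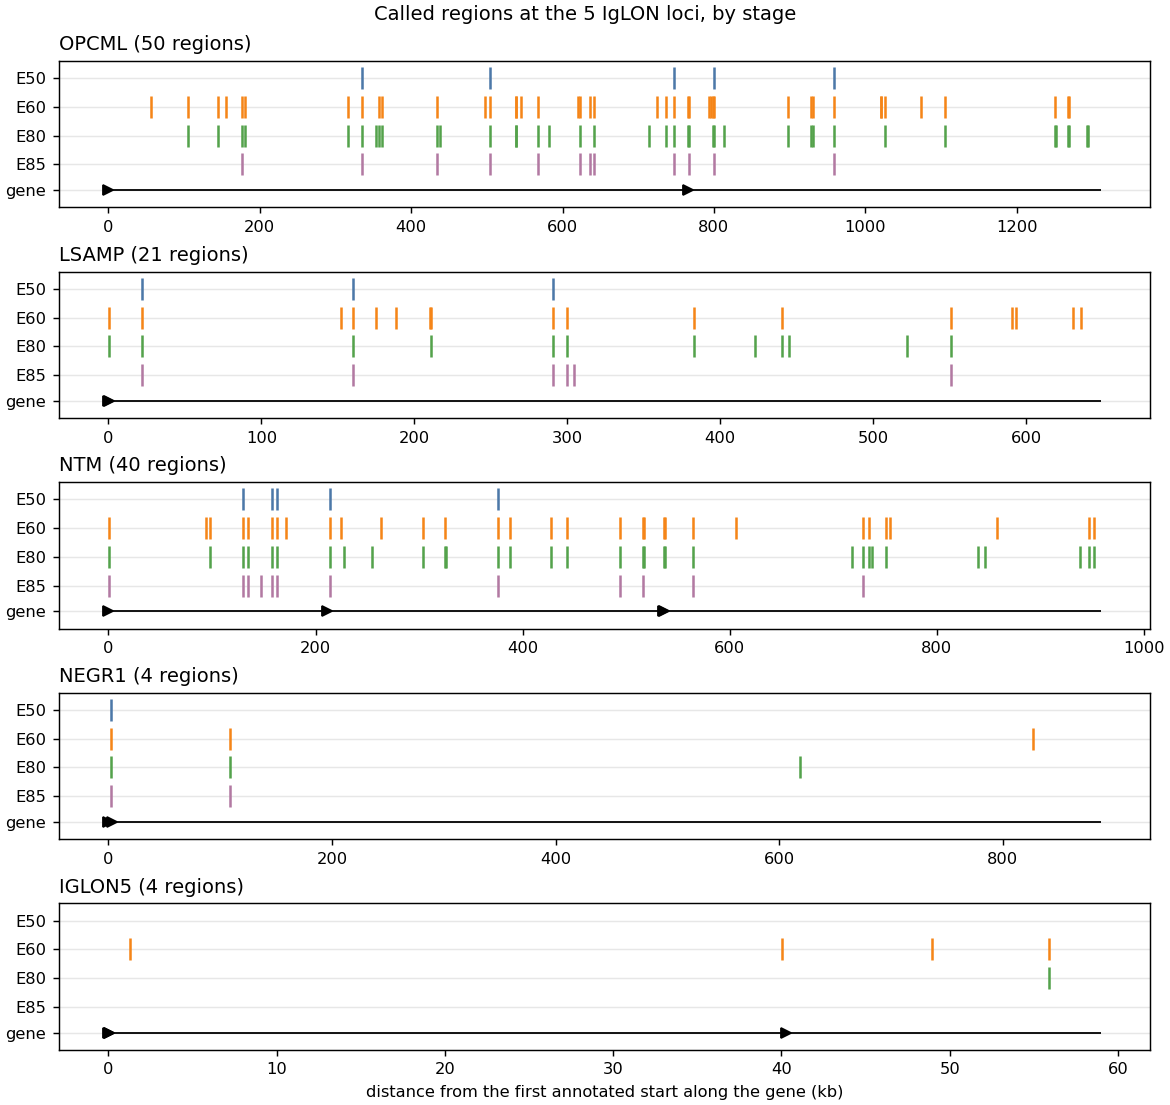
Called regions at each IgLON locus by stage (ticks, at region centres) against distance in kb from the first annotated start along the gene, with annotated starts as arrowheads on the gene line. Regions of OPCML and NTM are spread along the gene and meet the internal starts, those of LSAMP leave gaps of up to 130.1 kb, and NEGR1 has 4 regions in 888 kb.

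In OPCML and NTM, most regions lay in the long introns before and after the exon that both genes share. In OPCML, numbering introns on the transcript with 13 exons, intron 5 (612 kb) held 26 of the 50 regions and intron 6 (289 kb) held 12. In NTM, intron 1 (537 kb) held 25 of 40 and intron 2 (232 kb) held 8. In LSAMP, intron 1 (349.6 kb) held 10 of 21 and intron 3 (174 kb) held 6. Per length these were close to the whole gene, at 4.25 regions per 100 kb in OPCML intron 5, 4.65 in NTM intron 1 and 2.86 in LSAMP intron 1. Stage calls were spread unevenly in LSAMP: its 3 E80-alone regions lay 423, 445 and 522 kb from the first start, and no E60-alone region lay between them. Its 8 E60-alone regions lay 152 to 210.2 kb from that start (4 regions) and 591 to 636 kb from it (4 regions). In OPCML, both regions of the last intron (chr14:125026185-125026654 and chr14:125027190-125027843) were called at E80 alone. In NTM, 4 of the 9 late-only regions lay in intron 1, 2 in intron 2, 2 in intron 4 and 1 in intron 5. These positions were singled out after the values were seen.

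All 4 stages shared 12 distal IgLON regions. OPCML held 5 of them, chr14:125360987-125361925, chr14:125520140-125520469, chr14:125572767-125573896, chr14:125815693-125816393 and chr14:125985601-125986056. NTM held 4, chr14:124119088-124120070, chr14:124147600-124148514, chr14:124203108-124204540 and chr14:124365754-124366989, all in intron 1. LSAMP held 3, chr2:159847742-159848284, chr2:159985974-159986622 and chr2:160116668-160117385, also all in intron 1. NEGR1 and IGLON5 held none. The central 151 bases of 5 of them are printed on the strand of the gene, chosen to show different motifs, with motif letters of either strand in capitals.
OPCML, all 4 stages, chr14:125361381-125361531, minus strand: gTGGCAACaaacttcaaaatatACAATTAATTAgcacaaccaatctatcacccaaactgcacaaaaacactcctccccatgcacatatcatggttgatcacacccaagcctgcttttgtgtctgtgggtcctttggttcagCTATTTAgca
OPCML, all 4 stages, chr14:125815968-125816118, minus strand: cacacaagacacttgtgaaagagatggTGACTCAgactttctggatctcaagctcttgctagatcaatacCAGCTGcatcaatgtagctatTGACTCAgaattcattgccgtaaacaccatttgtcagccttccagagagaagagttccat
OPCML, all 4 stages, chr14:125985753-125985903, minus strand: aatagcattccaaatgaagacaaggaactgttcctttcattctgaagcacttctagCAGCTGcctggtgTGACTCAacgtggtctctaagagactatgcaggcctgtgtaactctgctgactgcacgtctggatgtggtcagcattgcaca
LSAMP, all 4 stages, chr2:159847938-159848088, plus strand: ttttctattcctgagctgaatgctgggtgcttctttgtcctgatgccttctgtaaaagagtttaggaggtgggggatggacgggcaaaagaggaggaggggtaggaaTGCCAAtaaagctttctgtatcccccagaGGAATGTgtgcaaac
NTM, all 4 stages, chr14:124147982-124148132, plus strand: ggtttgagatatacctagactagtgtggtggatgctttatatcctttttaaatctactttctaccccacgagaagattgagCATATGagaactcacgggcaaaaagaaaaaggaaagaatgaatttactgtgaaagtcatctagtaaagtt
The first holds the homeobox core TAATTA, which directly follows a SOX core (ACAAT), with an RFX motif (GTTGCCA) and a MEF2 motif (CTATTTA). The second holds 2 AP-1 motifs (TGACTCA) and the E-box CAGCTG, and the third holds 1 of each. The LSAMP sequence holds an NFI motif (TTGGCA) and a TEAD motif (ACATTCC), both on the opposite strand. The NTM sequence holds the E-box CATATG. A match is a description of letters and not of a bound site.

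Motifs were counted within 150 bases of the centre of every distal region, on both strands. AP-1 motifs, the sites of FOS and JUN proteins, stood in 21 of 109 IgLON regions, 19.3% (interval 12.3 to 27.9), against 25.8% of all distal regions. The SOX core stood in 55, 50.5% (interval 40.7 to 60.2), against 39.4%. NFI motifs stood in 33, 30.3% (interval 21.8 to 39.8), against 23.4%, and homeobox cores in 16, 14.7% (interval 8.63 to 22.7), against 10.1%. The E-box CAGCTG, which proneural factors bind, stood in 25 (22.9% against 25.9%) and CATATG in 4 (3.67% against 4.15%). TEAD motifs stood in 8.26% against 6.34%, RFX motifs in 5.50% against 6.12%, MEF2 motifs in 6.42% against 3.63%, the POU octamer ATGCAAAT in 5.50% against 3.37%, and SP/KLF motifs in 7.34% against 8.08%. REST, CRE and EGR motifs, spelled TTCAGCACC, TGACGTCA and GCGTGGGCG, stood in 0 of 109 IgLON regions (interval 0 to 3.33%), and in 0.534%, 0.336% and 0.248% of all distal regions. Of these shares, the SOX core was the only one whose IgLON interval lay wholly above the share of all distal regions, and base composition moved with it: median GC content was 46.8% in the distal IgLON regions and 49.2% in all distal regions. The part of base composition in the motif shares was not tested.

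In the series, AP-1 letters were more frequent in regions called at E80 alone than in those called at E60 alone. Of the 20 E80-alone IgLON regions, 6 held the motif (30.0%, interval 11.9 to 54.3), against 43.7% of all E80-alone distal regions. Of the 28 distal E60-alone IgLON regions, 3 held it (10.7%, interval 2.27 to 28.2), against 11.6%. Homeobox cores stood in 4 of 20 E80-alone IgLON regions (20.0%, interval 5.73 to 43.7), against 7.16% of all, and in 6 of 28 E60-alone regions (21.4%, interval 8.30 to 41.0), against 15.9%. The IgLON intervals for E80 and E60 overlap for both motifs. The central 151 bases are printed for the 4 E80-alone regions with the AP-1 letters near the centre. They are also printed for 3 E60-alone regions with the homeobox core there, as examples of the 2 motifs. These regions were selected by stage and motif together, so the contrast between them comes from the selection. They were picked after their calls were seen, except the last NTM sequence, which is from the narrowest NTM region.
LSAMP, E80 alone, chr2:160271409-160271559, plus strand: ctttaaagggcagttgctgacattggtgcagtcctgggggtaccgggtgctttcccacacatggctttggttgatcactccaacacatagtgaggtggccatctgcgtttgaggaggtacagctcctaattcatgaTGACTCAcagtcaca
NTM, E80 alone, chr14:124707924-124708074, plus strand: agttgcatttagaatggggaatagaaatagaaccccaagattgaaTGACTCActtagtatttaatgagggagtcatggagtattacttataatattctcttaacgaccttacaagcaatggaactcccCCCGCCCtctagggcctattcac
NTM, E80 alone, chr14:124727438-124727588, plus strand: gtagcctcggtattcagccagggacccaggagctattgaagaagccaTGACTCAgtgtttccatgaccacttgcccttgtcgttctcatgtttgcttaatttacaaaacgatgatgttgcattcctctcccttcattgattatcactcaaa
NTM, E80 alone, chr14:124927573-124927723, plus strand: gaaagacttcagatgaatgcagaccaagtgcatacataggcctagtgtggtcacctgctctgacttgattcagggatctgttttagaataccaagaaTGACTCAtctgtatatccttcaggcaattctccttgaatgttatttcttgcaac
OPCML, E60 alone, chr14:125527355-125527505, minus strand: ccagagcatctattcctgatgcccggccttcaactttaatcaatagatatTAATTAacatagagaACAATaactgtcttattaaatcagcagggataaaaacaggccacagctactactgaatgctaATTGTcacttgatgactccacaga
OPCML, E60 alone, chr14:125700108-125700258, minus strand: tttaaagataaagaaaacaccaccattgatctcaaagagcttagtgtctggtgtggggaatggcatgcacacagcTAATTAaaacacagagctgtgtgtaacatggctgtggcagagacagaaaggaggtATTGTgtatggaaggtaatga
IGLON5, E60 alone, chr19:51114594-51114744, plus strand: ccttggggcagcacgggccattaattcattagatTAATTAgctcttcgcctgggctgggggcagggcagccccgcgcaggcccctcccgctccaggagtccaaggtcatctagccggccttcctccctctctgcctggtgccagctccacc
The capitals mark TGACTCA in the E80-alone sequences, with SP/KLF letters also in the second, and TAATTA in the E60-alone sequences, with SOX letters of either strand also in both from OPCML.

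The regions also carried peaks lifted from other sets, whose codes H14, H16, H22 and H23 the labels do not define. At the IgLON loci 72 of 119 regions held a lifted peak (60.5%, interval 51.1 to 69.3), against 63.3% of all regions. Among distal regions the share was 57.8% at the IgLON loci (interval 48.0 to 67.2), against 56.1% in the series. The share differed between stage combinations. It was 12 of 14 for regions called at all 4 stages (85.7%, against 89.8% in the series), 12 of 15 for E60 with E80 and E85 (80.0% against 77.8%) and 28 of 37 for E60 with E80 (75.7% against 61.0%). It was 15 of 30 for E60 alone (50.0% against 50.7%) and 2 of 20 for E80 alone (10.0%, interval 1.23 to 31.7, against 27.9%). The 2 E80-alone regions with lifted peaks were chr14:125605783-125606566 in OPCML and chr14:124217255-124217542 in NTM. The other 18 held none. Width moved with these shares: the median was 303 bp for E80-alone IgLON regions, 414 bp for E60 alone and 817 bp for all 4 stages, and its part was not tested. By code, lifted peaks of H14 stood in 52.1% of the IgLON regions, H16 in 20.2%, H22 in 36.1% and H23 in 58.8%, against 55.8%, 28.3%, 41.7% and 57.8% of all regions. In distal IgLON regions they stood in 48.6%, 19.3%, 33.9% and 56.0%, against 48.0%, 18.4%, 32.2% and 50.0% of all distal regions. The lower IgLON shares for H14, H16 and H22 were thus not seen against distal regions. The NEGR1 start region held 9 lifted peaks, the most of any of the 119.

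**Figure D5:**
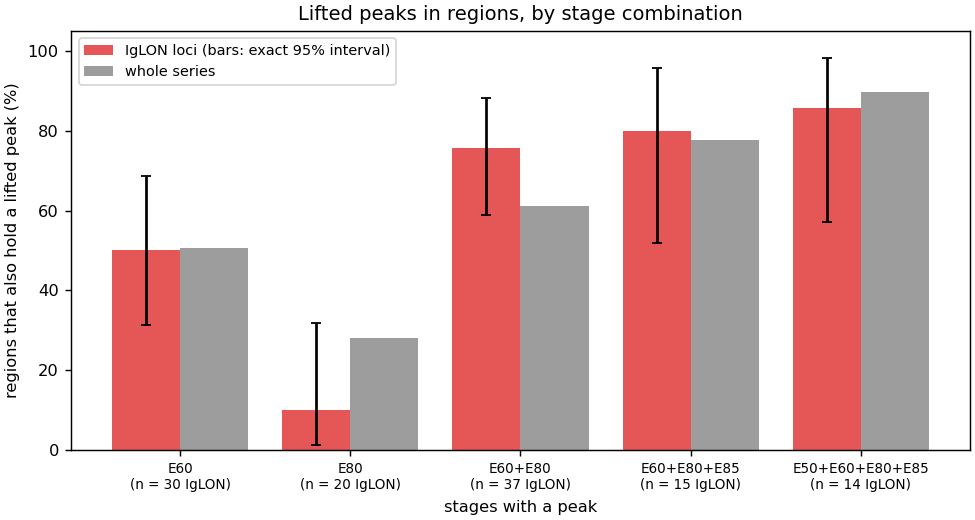
Share of regions that also hold a lifted peak (%), by stage combination, at the IgLON loci (red, with exact 95% intervals) and in the whole series (grey). The IgLON share is lowest for E80 alone, at 10.0%, and highest for all 4 stages, at 85.7%.

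The 2 regions called at E85 and at no other stage both held lifted peaks of all 4 codes. They were chr2:160130493-160130851 in LSAMP intron 1 and chr14:124136817-124137843 in NTM intron 1. The LSAMP region is printed at its centre, with an NFI motif and a SOX core in capitals.
LSAMP, E85 alone, chr2:160130597-160130747, plus strand: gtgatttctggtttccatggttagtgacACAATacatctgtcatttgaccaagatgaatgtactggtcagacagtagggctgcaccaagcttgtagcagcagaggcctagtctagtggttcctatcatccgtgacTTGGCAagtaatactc
The single region called at E60 and E85 was chr14:125684103-125685095 in OPCML, which held 2 lifted peaks.

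Widths ranged from 178 to 3119 bp with a median of 441 bp, against a median of 475 bp in the series. Among distal regions the order was reversed, with a median of 431 bp at the IgLON loci and 401 bp in the series. The narrowest and widest were 180 bp (chr14:125774952-125775131, E60 alone) and 1226 bp (chr14:126175968-126177193, E60 and E80) in OPCML. In LSAMP they were 178 bp (chr2:160036370-160036547, E60 alone) and the 1814 bp of the start region. In NTM they were 202 bp (chr14:124927548-124927749, E80 alone) and 1433 bp. In NEGR1 the narrowest was 313 bp (chr1:152975929-152976241, E60 alone), and in IGLON5 they were 423 bp and 2058 bp (chr19:51120605-51122662, over an exon near the end of the gene, E60 and E80). Median GC content was 67.4% at IGLON5, 49.0% at NTM, 47.5% at OPCML, 42.9% at LSAMP and 40.0% at NEGR1. It was 52.2% in all regions of the series and 49.2% in its distal regions.

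Other adhesion genes of the immunoglobulin superfamily give the family a closer background. A list of 32 such neuronal genes, chosen with earlier results of these data known, held 336 regions, with at least 1 at each gene. IgLON regions were called at E50, E60, E80 and E85 in 11.8%, 81.5%, 72.3% and 26.9% of cases, and those of the list in 13.4%, 84.2%, 66.7% and 26.2%. The late-only share was 42.3% at the IgLON loci (interval 28.7 to 56.8) and 48.3% in the series. In the list it was 33.8% (50 late-only and 98 early-only regions, interval 26.2 to 42.0), and the IgLON and list intervals overlap. The list had 43 regions at E80 and not E60 and 102 at E60 and not E80, beside 20 and 31 at the IgLON loci. Promoter regions were 15.5% of the list and 8.40% of the IgLON regions, and their part in these shares was not tested. Of the list, 10 genes had more late-only than early-only regions, 18 had fewer and 4 had as many. Most regions were held by KIRREL3 (32), DSCAML1 (30), ROBO2 (27) and SDK2 (26), all fewer than the 50 of OPCML and the 40 of NTM. Per 100 kb of locus, KIRREL3 (5.48), DSCAML1 (8.10) and SDK2 (8.16) stood above OPCML (3.80) and NTM (4.15), and ROBO2 (1.52) stood below. NFASC, which encodes neurofascin of the axon initial segment and node, had 5 late-only and 2 early-only regions. The other 9 genes with more late-only regions each had a difference of 1. At the other end were SDK2, a sidekick adhesion gene of synaptic lamination known from mouse retina, with 1 late-only and 10 early-only regions, DSCAML1 with 5 and 13, and CADM1, a synaptic adhesion gene, with 1 and 7.

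Loci of like stage make-up were sought among 213 protein-coding loci with at least 20 regions, by a distance that is 0 for the same shares over the 15 combinations of stages and 1 for no overlap. Nearest to OPCML were KCNN3, a calcium-activated potassium channel gene (0.0527), AUTS2 (0.0672) and CACNA1E, a voltage-gated calcium channel gene (0.0733), against a median of 0.225. Nearest to NTM were FSTL4 (0.0837), GALNT18 (0.0917) and DLG2, a postsynaptic scaffold gene (0.0940), against a median of 0.225. Nearest to LSAMP were CMIP (0.104), NEDD4L (0.116) and TENM2, a teneurin adhesion gene (0.122), against a median of 0.296. To all IgLON regions pooled the nearest were FSTL4 (0.0888), SORCS2 (0.101), PARD3 (0.105), KCNN3 (0.108) and CDK14 (0.113). NTM and OPCML stood 0.120 apart, LSAMP and NTM 0.246, and LSAMP and OPCML 0.251. All loci share the same 4 peak sets, so the distances describe these sets.

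Peak numbers in the deposited names ran in genome order with gaps, some of them within the IgLON loci. OPCML and NEGR1 had 0 skipped numbers at each stage, and LSAMP had 1 at E60 (5.56% of its numbers). IGLON5 had 0 at E60 and E80, and no peak at E50 or E85. NTM had 1, 2, 2 and 1 at E50, E60, E80 and E85, or 16.7%, 6.06%, 5.88% and 7.69% of its numbers. Over the autosomes and the X chromosome, 12.1%, 7.89%, 8.76% and 10.5% of numbers were skipped at these stages. Together, 7 numbers were skipped within the 5 loci. Whether a skipped number stands for a peak removed before deposit is not given in the sources used here.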

How the data were processed

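Libraries were made with the Omni-ATAC protocol, 2 per culture as technical replicates and 8 in all, per the labels' protocols. Named in the submitters' processing notes are the build rheMac10 and the tools cutadapt 4.4, Bowtie2 2.5.1 and SAMtools 1.15. How peaks were called and merged, and whether libraries were pooled or cuts shifted for Tn5, is not stated there. The authors deposited a headerless table of 112696 merged intervals with position, width and the names of the peaks in each. The stage code within those names decided which stages called an interval. Intervals with lifted peaks alone (40338) were left out. Another 8 columns of values carry no names and were used in no step, because nothing ties them to a library, so the test planned on them was not run.

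Every sequence name matched the Mmul_10 assembly report. NCBI gene models and sequence of that assembly were used, with an overlap of at least 1 bp for a locus and 1000 bp for a promoter. Sequence shared between regions was found with blastn 2.17.0 (E-value 0.001). The members, gene lists and motifs were chosen with earlier results of these data known. Part of the marker gene check is not reported here. The rule named regions at a member start, distal ones called at all 4 stages, those called at E50 or E85 without E60 and E80, and the widest and narrowest of each gene. Other regions named, such as those at lncRNA starts, at E80 or E60 alone, or at E60 and E85, were chosen after their values were seen. Named list genes were the 4 with most regions and the 3 with the lowest and the 3 with the highest balance of late-only over early-only regions, where only the first could be named because 9 tied behind it. Assignment to loci, the count of late-only regions and promoter calls were checked on simulated intervals, and the motif search was not. Alternatives were other locus, promoter and width limits, peaks for regions, regions without lifted peaks, and each culture or gene left out. Python 3.11.15, pandas 2.3.3, NumPy 2.4.6, SciPy 1.17.1 and matplotlib 3.10.9 were used.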

Additional observations from a re-analysis of the deposited data

Results flagged for a closer look

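In the series, 40338 of the 112696 merged regions held only lifted peaks of the sets coded H14, H16, H22 and H23. Beside the 119 regions described above, 75 further ones at the 5 IgLON loci held such peaks alone, with no macaque stage peak. In the series, 40338 such regions stood beside 72358 with a stage peak, a similar proportion, so the 75 do not set these loci apart. OPCML held 34 of them, NTM 30, LSAMP 9, NEGR1 2 and IGLON5 0. The labels do not define these sets, and there is no control for them.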

How the results depend on the processing

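No paired analysis was possible because the 2 libraries of a stage come from 1 culture and the value columns carry no library names. Of 145 values recomputed under alternatives, 126 stayed within their interval or within 1.5 times the main count and 19 moved. Some of the 126 could not move. A stage count is the same by construction when another culture is left out, as is the E80 share of discordant regions without E50 or E85. The gene body alone and the region centre rule returned the same 119 regions. The count of 126 therefore does not measure how stable the results were. In regions without a lifted peak the balances turned from early to late: E80 took 54.5% of the regions discordant between E80 and E60 (18 of 33), against 39.2% in all IgLON regions, and late-only regions took 54.5%, against 42.3%. There, E60 with E80 alone took 19.1%, promoters 2.13%, and 2, 29, 32 and 5 regions were called at E50, E60, E80 and E85. With peaks in place of regions, 71.1% stood in regions with a lifted peak. Without the E60 culture the late-only share was 100%, as every IgLON region called at E50 was also called at E80 and E85. Without E80 that share was 2.90%. The lifted share without E80 was 70.7%, as 18 of the 20 E80-alone regions that dropped out held no lifted peak. Leaving out E85 gave 44.4% at E60 and E80 alone, by construction, as regions called at E60, E80 and E85 joined that class. Without OPCML the stage counts were 9, 55, 48 and 20. Without NTM they were 9 at E50, 54 at E80 and 20 at E85. Without the 4 regions at the near-identical starts, an alternative chosen after seeing the data, the promoter share was 5.22%, and it and the other values stayed within those limits. The E80 share and the E60 with E80 share could not be given without the E60 or E80 culture. Set size limits each comparison except that of E80 with E60, and 4 regions each at NEGR1 and IGLON5 limit those genes.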
